A study of Mus musculus with 12 samples.

Results

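The 38 genes described here encode the core autophagy machinery, from the kinase complex that starts an autophagosome to the SNARE proteins that fuse it with the lysosome. They were taken as the rows of the deposited count table that carry one of 38 listed gene symbols, out of 25171 loci in the table, and all 38 had enough reads to be tested in every comparison. Bulk RNA was sequenced from 12 mouse hearts, 3 in each of 4 groups, to ask what the expression of NOTCH2NLC with 98 GGC repeats changes in the heart. NOTCH2NLC is the human gene whose expanded repeat is translated into a polyglycine protein in neuronal intranuclear inclusion disease.

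All 4 groups carried the conditional transgene, loxP-stop-loxP-NOTCH2NLC-(GGC)98 at the Rosa26 site. EIIa-tg hearts came from mice at P30 (30 days after birth) in which EIIa-Cre, active throughout the body, had removed the stop, and EIIa-ctl hearts came from littermates of that age without the Cre. Myh6-tg hearts came from mice at P90 that also carried Myh6-creERT2, a tamoxifen-activated Cre driven by a cardiomyocyte promoter, and that had received 3 injections of 75 mg/kg tamoxifen every other day from P60. Myh6-ctl hearts came from mice of that genotype and age injected with corn oil alone, so that an effect of tamoxifen itself and an effect of the transgene cannot be told apart. In EIIa-tg mice the transgene was on in every tissue, so that a change in the heart and a change that follows from another organ cannot be told apart either. The transgene's own RNA was not analysed here, and the labels were therefore not checked against it. The labels call the tissue heart although their extraction text speaks of brain. All 10 cardiomyocyte markers were present in every heart, with summed levels of 11534 to 54094 CPM (counts scaled to a common library size) against 7.87 to 41.1 CPM for 5 neuron markers, of which Syt1 and Gad1 were at 0 in all Myh6-tg hearts.

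Autophagy delivers cytoplasm, organelles and protein aggregates to the lysosome. The ULK kinase complex starts the process, a lipid kinase marks the membrane with phosphatidylinositol 3-phosphate, ATG9 vesicles and lipid transfer proteins enlarge it, and ubiquitin-like enzymes attach LC3 and GABARAP proteins to it, which bind cargo receptors. In cardiomyocytes, which rarely divide, this turnover is a main route for removing damaged mitochondria and aggregated protein. RNA levels do not measure the flux through the pathway.

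The libraries held 38343106 to 50969834 counts per heart. Member counts ran from 127 to 16550 in a heart. Mitochondrial genes took 28.5% to 38.3% of the counts in 9 hearts and 15.5% to 18.6% in the 3 Myh6-tg hearts. Y-linked genes had 4224 to 7307 counts in the hearts numbered 1 and no more than 2 counts in any other. Levels below are CPM after TMM scaling, which corrects for a few genes that take a large share of a library, and comparisons between genes use FPKM, which also divides by gene length.

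The share of core autophagy genes that passed the test was close to that of all genes in both models. No gene passed among the 7 PI3-kinase genes or the 7 ATG9, lipid transfer and WIPI genes. With 7 genes each and 17.0% and 18.3% of all genes called in EIIa-tg and Myh6-tg hearts, this is not read as a pattern. DESeq2 and limma on FPKM did call genes in both of these steps. In EIIa-tg hearts 5 of 38 (13.2%) passed the test (adjusted p under 0.05 in edgeR's quasi-likelihood test with Benjamini-Hochberg adjustment over all genes), where Atg13, Gabarapl1 and Gabarap were higher and Tecpr1 and Ulk2 lower. Of all 14908 genes tested, 8.65% were called higher and 8.30% lower, 17.0% in all. Without the adjustment 13 of 38 (34.2%) had p under 0.05, as had 34.9% of all genes. The median log2 fold change was -0.06 over the 38 genes and 0.02 over all genes. All 3 EIIa-tg hearts lay above all 3 controls for 5 genes, where the share of all genes was 20.0%, and below them for 8 genes, where the share was 21.1%. The count moved with single hearts, as it did over all genes: leaving out EIIa-ctl replicate 1, EIIa-ctl replicate 3 or EIIa-tg replicate 1 gave 0 calls in edgeR (6, 10 and 10 genes had an unadjusted p under 0.05), where 0, 1 and 0 of all genes were called. Leaving out EIIa-tg replicate 3 gave 1 call, Atg13, with 0.877% of all genes called, and leaving out EIIa-tg replicate 2 gave 11, with 26.6%. The 5 called genes kept their direction in each of these fits. They were chosen on the same hearts, and their transgenic and control hearts did not overlap. Leaving out a heart could therefore hardly turn their direction.

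In Myh6-tg hearts 5 of 38 genes (13.2%) passed as well, with Atg13 and Gabarapl1 higher and Atg10, Atg4d and Ulk2 lower. The background was 8.96% called higher and 9.38% called lower of 15298 genes, 18.3% in all. An unadjusted p under 0.05 was found for 11 of 38 (28.9%) and for 34.1% of all genes. The median log2 fold change of the 38 genes was 0.14, against 0.03 over all genes. For 8 genes all 3 Myh6-tg hearts lay above all 3 controls (19.8% of all genes), and for 6 genes below them (20.3% of all genes). Leaving out Myh6-ctl replicate 1, Myh6-tg replicate 2 or Myh6-tg replicate 3 gave 0 calls in edgeR (7, 9 and 9 genes had an unadjusted p under 0.05), where the share of all genes called also fell, to 5.01%, 6.23% and 6.17%. Leaving out Myh6-ctl replicate 2 or replicate 3 gave 3, with 11.02% and 10.3% of all genes called, and in the latter case these were Atg10, Atg4d and Ambra1. All 5 called genes kept their direction here too, with the same limit.

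With the stricter thresholds of the study's methods (adjusted p below 0.01, and at least 1 on the log2 scale in either direction), edgeR called 0 of the 38 genes in EIIa-tg hearts (0% of all genes) and 0 in Myh6-tg hearts (3.97% of all genes), where 13 and 11 had an unadjusted p under 0.05. In the EIIa comparison none of the 14908 genes passed, so that the 0 there is not particular to the 38 genes. The paper used DESeq2 and reports genes past these thresholds in both models, so that the 0 over all genes holds for this edgeR fit only. DESeq2 called 1 at those thresholds in EIIa-tg hearts, Atg13, and 2 in Myh6-tg hearts, Atg13 and Atg10. Under limma on log2(FPKM + 1) there were 0 and 3, the latter being Atg13, Vmp1 and Gabarapl1. The share of all genes at these thresholds was not counted for DESeq2, limma or the other edgeR fits. Other edgeR fits also took Atg13 past these thresholds. In the Myh6 comparison the fit that pairs hearts by replicate number did so (adjusted p = 0.00645, against 5.92e-04 to 0.0859 over the 18 alternatives), as did the fit with a Y-linked covariate, the fit of all 12 hearts and the fit without Myh6-tg replicate 1. The fit of all 12 hearts took Atg10 past them as well. In the EIIa comparison the fit without a filter on low counts and the fit without EIIa-tg replicate 2 took Atg13 past them.

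**Figure D1:**
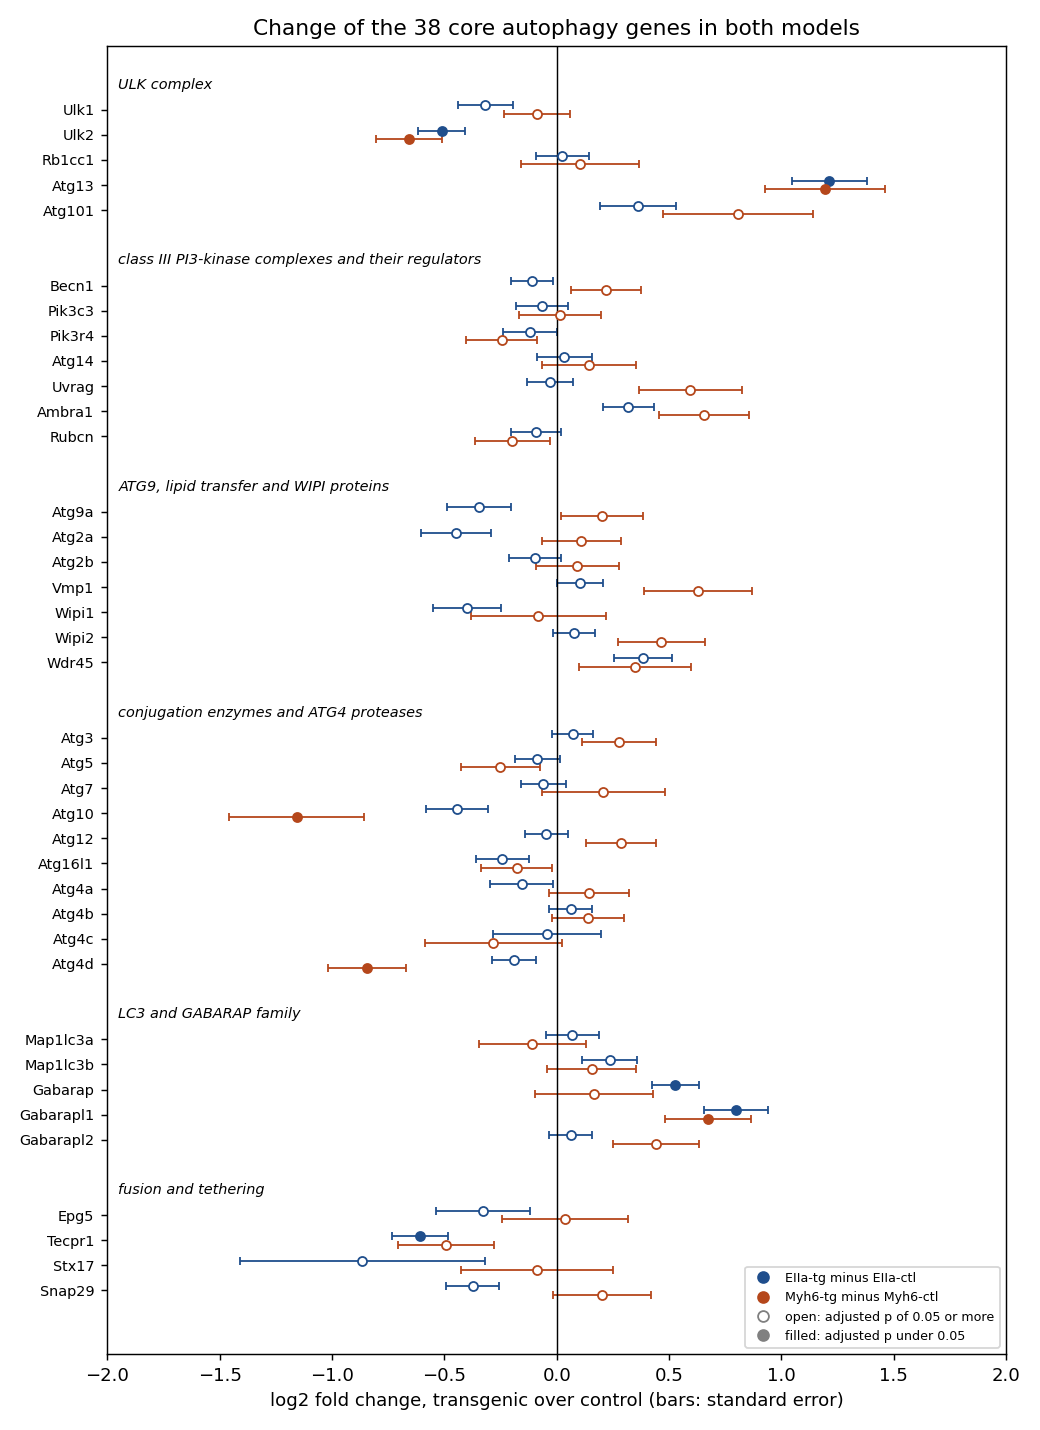
The x axis gives the log2 fold change of each of the 38 core autophagy genes, transgenic over control, with the standard error as a bar, in EIIa-tg (blue) and Myh6-tg (orange) hearts, and filled points mark an adjusted p under 0.05. Atg13 lies near 1.2 in both models, Gabarapl1 and Ulk2 are filled in both, and most other points lie close to 0.

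The kinase complex that starts autophagy held the largest increase among the 38 genes, and its members did not move together. Atg13 encodes the adaptor that joins the ULK kinases to the scaffold FIP200. Its level was 47.4, 47.3 and 46.9 CPM in the 3 EIIa-ctl hearts and 119, 79.4 and 128 CPM in the 3 EIIa-tg hearts. In Myh6-ctl hearts it was 49.0, 71.3 and 76.7 CPM, and in Myh6-tg hearts 104, 178 and 163 CPM. Every transgenic heart of either model lay above every control heart of both, with EIIa-tg replicate 2 and Myh6-tg replicate 1 the lowest of their groups. Atg13 rose by a log2 fold change of 1.21 (SE 0.17, adjusted p = 0.0147) in EIIa-tg and 1.19 (SE 0.27, adjusted p = 0.0223) in Myh6-tg hearts, which is 2.32-fold and 2.29-fold. The gene lies at chr2:91674618-91710576 on the minus strand (GRCm38, GENCODE M21), where no other annotated gene shares its exons.

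Ulk2, which encodes one of the paired initiating kinases, went the other way. It stood at 94.9, 76.3 and 80.3 CPM in EIIa-ctl hearts and at 59.7, 60.6 and 55.4 CPM in EIIa-tg hearts. The Myh6-ctl hearts had 75.2, 77.1 and 82.6 CPM of Ulk2 and the Myh6-tg hearts 49.7, 47.9 and 49.2 CPM. All 6 transgenic hearts were below all 6 control hearts, and the Myh6-tg hearts were the lowest of the 4 groups. Ulk2 (chr11:61775649-61855073, minus strand) fell by 0.51 on the log2 scale (SE 0.10, adjusted p = 0.0222) in EIIa-tg hearts and by 0.66 (SE 0.15, adjusted p = 0.0220) in Myh6-tg hearts. On log2(FPKM + 1) neither call held in limma, with -0.28 (adjusted p = 0.0638) and -0.24 (adjusted p = 0.357).

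The 3 other genes of the complex did not pass. For the partner kinase Ulk1 the EIIa-tg value was -0.32 (adjusted p = 0.103) and the Myh6-tg value -0.09 on the log2 scale. Atg101, whose product stabilises ATG13, had 0.36 (adjusted p = 0.165) and 0.81 (adjusted p = 0.134), with Myh6-tg values that spread from 17.8 to 35.8 CPM. The scaffold gene Rb1cc1 (FIP200) had 0.02 and 0.10.

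None of the 7 genes for the class III PI3-kinase and its regulators passed edgeR's test in either model (17.0% and 18.3% of all genes did). An unadjusted p under 0.05 was found for 1 in EIIa-tg and 2 in Myh6-tg hearts (34.9% and 34.1% of all genes). DESeq2 called 0 and 1 of them, where it called 18.1% and 19.3% of all genes. With limma on log2(FPKM + 1) the calls were 0 and 3, against 23.9% and 32.7% of all genes. The lipid kinase Pik3c3 (VPS34) had log2 fold changes of -0.07 and 0.01, its partner Pik3r4 (VPS15) -0.12 and -0.24, and Becn1 (Beclin 1) -0.11 and 0.22 in EIIa-tg and Myh6-tg hearts. Atg14, which directs the complex to sites of autophagosome formation, had 0.03 and 0.14. Uvrag, the corresponding subunit of the endosomal complex, had -0.03 and 0.59 (adjusted p = 0.110 for the latter), and Rubcn, an inhibitor of that complex, had -0.09 and -0.20.

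Ambra1, a regulator that binds Beclin 1, came closest to a call in this group. The EIIa-ctl values were 18.2, 20.4 and 19.2 CPM and the EIIa-tg values 22.9, 22.3 and 26.7 CPM. The Myh6-ctl values of Ambra1 were 15.8, 13.9 and 20.8 CPM and the Myh6-tg values 28.5, 24.6 and 25.4 CPM. Transgenic and control hearts did not overlap in either model, and the log2 fold changes of 0.32 (SE 0.11, adjusted p = 0.0862) and 0.66 (SE 0.20, adjusted p = 0.0581) missed the threshold.

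Among the 7 genes for ATG9, the lipid transfer proteins and the WIPI proteins, edgeR called 0 in both models (17.0% and 18.3% of all genes). In EIIa-tg hearts DESeq2 called Atg2a (18.1% of all genes) and limma on FPKM called Wdr45 (23.9%). In those hearts 4 had an unadjusted p under 0.05 (34.9% of all genes). These were Atg9a, the scramblase of the vesicles that seed the membrane (-0.35), the lipid transfer gene Atg2a (-0.45), Wipi1 (-0.40) and Wdr45 (0.38), the last 2 encoding proteins that bind phosphatidylinositol 3-phosphate. In Myh6-tg hearts 2 had an unadjusted p under 0.05, Vmp1 and Wipi2 (34.1% of all genes). DESeq2 called 0 there (19.3% of all genes) and limma on FPKM called both (32.7%).

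Vmp1, a scramblase of the endoplasmic reticulum, had 66.8, 53.5 and 38.8 CPM in Myh6-ctl hearts and 98.9, 73.3 and 70.5 CPM in Myh6-tg hearts. These groups did not overlap, and the highest heart of each was its replicate 1. Its log2 fold change was 0.63 (SE 0.24, adjusted p = 0.111), and in the fit that pairs hearts by replicate number 0.65 (adjusted p = 0.0389), with adjusted p from 0.00729 to 0.257 over the 18 alternative fits. In EIIa-tg hearts Vmp1 had 0.11. The remaining lipid transfer gene, Atg2b, had -0.10 and 0.09.

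The next 10 genes encode the enzymes that attach ATG12 to ATG5 and LC3 to the membrane, and the ATG4 proteases. Of these, edgeR called 0 in EIIa-tg hearts (17.0% of all genes) and 2 in Myh6-tg hearts (18.3%), both lower. Atg10, the conjugating enzyme for ATG12, was the member that fell furthest in Myh6-tg hearts. The Myh6-ctl hearts had 19.2, 20.5 and 11.6 CPM and the Myh6-tg hearts 10.2, 6.28 and 6.25 CPM. The EIIa-ctl hearts had 18.7, 18.2 and 18.7 CPM of Atg10 and the EIIa-tg hearts 14.8, 14.9 and 11.1 CPM. Transgenic hearts lay below their controls in both models, although Myh6-ctl replicate 3 was close to the highest Myh6-tg heart. Atg10 (chr13:90935356-91223968, minus strand) fell by 1.16 on the log2 scale (SE 0.30, adjusted p = 0.0349) in Myh6-tg hearts, to 0.448 of the control level. In EIIa-tg hearts the log2 fold change was -0.44 (SE 0.14, adjusted p = 0.0584), which missed the threshold, and DESeq2 called it.

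Atg4d encodes one of the cysteine proteases that trim LC3 and GABARAP proteins and release them from membranes. In Myh6-ctl hearts it had 65.6, 61.1 and 48.0 CPM, and in Myh6-tg hearts 32.3, 30.3 and 33.4 CPM. In EIIa-ctl hearts it had 66.7, 57.0 and 62.1 CPM, and in EIIa-tg hearts 52.7, 58.3 and 51.2 CPM. The Myh6-tg hearts were far below the other 9 hearts, and the EIIa groups overlapped. Atg4d fell by 0.84 (SE 0.17, adjusted p = 0.0171) in Myh6-tg hearts, and in EIIa-tg hearts the log2 fold change was -0.19 (SE 0.10, adjusted p = 0.207). The Myh6 call did not hold in limma on log2(FPKM + 1), with -0.39 (adjusted p = 0.113). The gene lies at chr9:21265293-21277772 on the plus strand and shares 1405 of its 7264 exonic bases with Kri1 on the other strand. The library kit does not mark strand, so reads from the shared bases cannot be told apart. Kri1 was counted at 1.74 to 5.65 CPM over the 12 hearts. Other members share exonic bases with another annotated gene too, most of all Becn1 (43.9%), Atg9a (31.8%), Gabarapl1 (28.3%) and Wdr45 (24.7%). Vmp1 shares 2.38% with Mir21a.

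The other 8 genes of this group did not pass in either model. The other proteases of the Atg4d family had log2 fold changes of -0.16 and 0.14 (Atg4a), 0.06 and 0.14 (Atg4b) and -0.04 and -0.28 (Atg4c). Atg7, the activating enzyme of both conjugation reactions, had -0.06 and 0.21, and Atg3, the conjugating enzyme for LC3, had 0.07 and 0.28. The ligase genes had -0.09 and -0.25 (Atg5), -0.05 and 0.28 (Atg12) and -0.24 and -0.18 (Atg16l1). The 95% interval for Atg5 ran from -0.32 to 0.15 in EIIa-tg hearts and from -0.66 to 0.16 in Myh6-tg hearts. A change of Atg5 within these intervals was not excluded with 3 hearts a group.

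**Figure D2:**
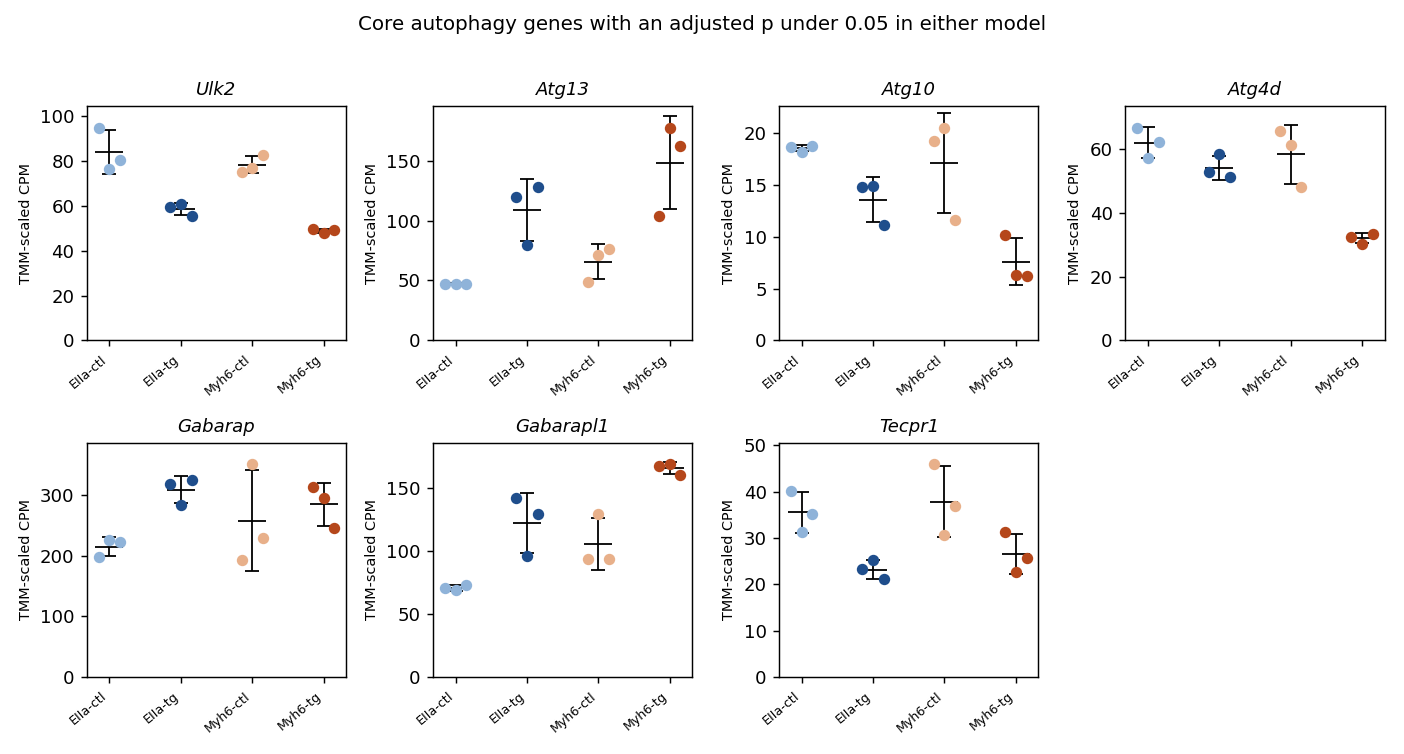
Each panel shows 1 of the 7 core autophagy genes with an adjusted p under 0.05 in either model, with TMM-scaled CPM on the y axis, a point for each heart and the mean ± SD of 3 hearts in black. Atg13 and Gabarapl1 are higher and Ulk2 lower in the transgenic hearts of both models, and Atg4d is lowest in the Myh6-tg hearts, at 30.3 to 33.4 CPM.

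The LC3 and GABARAP proteins are the ubiquitin-like modifiers that these enzymes attach, and each is cut by an ATG4 protease after a glycine near its end. The last 30 coding bases of 4 of the genes are shown because this is the site on which Atg4d and its relatives act. They were read from GENCODE M21 transcripts (GRCm38), with the codon of the last glycine in capitals.
Map1lc3a: gtctacgcctcccaagaaaccttcGGCttc
Gabarap: gcctacagtgatgaaagcgtctatGGTctg
Gabarapl1: gcctacagtgatgaaagtgtctatGGAaaa
Gabarapl2: gcctacagcggagagaacacttttGGCttc
Each of these 4 genes has 1 codon after the glycine. The coding sequences hold 354 bases with the stop codon in the 3 GABARAP genes and 366 in Map1lc3a.

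In EIIa-tg hearts all 5 genes had a positive log2 fold change, from 0.06 to 0.80, and 2 of them, Gabarapl1 and Gabarap, passed. In Myh6-tg hearts 4 of 5 were positive and 1, Gabarapl1, passed. Of all genes, 8.65% were called higher in EIIa-tg and 8.96% in Myh6-tg hearts. Gabarapl1 (chr6:129533160-129542346, plus strand) had 70.3, 69.0 and 73.3 CPM in EIIa-ctl hearts and 142, 96.1 and 129 CPM in EIIa-tg hearts. It had 93.8, 129 and 93.5 CPM in Myh6-ctl hearts and 168, 169 and 161 CPM in Myh6-tg hearts. The EIIa-tg and Myh6-tg hearts lay above their own controls without overlap, while the Myh6-ctl hearts lay above the EIIa-ctl hearts and within the range of the EIIa-tg hearts, apart from 2 just below it. Gabarapl1 rose by 0.80 on the log2 scale (SE 0.14, adjusted p = 0.0178) and by 0.67 (SE 0.19, adjusted p = 0.0461). Leaving the mitochondrial genes out of the Myh6 comparison, scaling by relative log expression or dropping the filter on low counts ended the Myh6 call. An annotated noncoding transcript on the other strand shares 570 of its 2013 exonic bases.

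Gabarap (chr11:69991143-69994951, plus strand) had 197, 226 and 222 CPM in EIIa-ctl hearts and 318, 283 and 325 CPM in EIIa-tg hearts. In Myh6-ctl hearts it had 192, 351 and 229 CPM and in Myh6-tg hearts 314, 296 and 245 CPM. The EIIa groups were apart, and the Myh6 groups overlapped because Myh6-ctl replicate 2 was the highest of all 12 hearts. Gabarap rose by 0.53 (SE 0.11, adjusted p = 0.0217) in EIIa-tg hearts and had 0.17 (SE 0.26, adjusted p = 0.699) in Myh6-tg hearts.

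Map1lc3b had 285, 255 and 274 CPM in EIIa-ctl hearts and 367, 281 and 307 CPM in EIIa-tg hearts. Its Myh6-ctl values were 245, 314 and 232 CPM and its Myh6-tg values 314, 292 and 263 CPM. Both pairs of groups overlapped, and neither log2 value passed, at 0.24 (adjusted p = 0.207) for EIIa-tg and 0.16 (adjusted p = 0.629) for Myh6-tg. Map1lc3a, its close relative, had 316, 299 and 348 CPM in EIIa-ctl hearts and 373, 333 and 300.2 CPM in EIIa-tg hearts. In Myh6-ctl hearts it had 258, 383 and 235 CPM and in Myh6-tg hearts 257, 305 and 240.0 CPM. These groups overlapped as well, with log2 fold changes of 0.07 and -0.11. Gabarapl2 had 73.9, 74.7 and 75.2 CPM in EIIa-ctl hearts, 86.4, 74.5 and 71.8 CPM in EIIa-tg hearts, 73.7, 91.9 and 63.1 CPM in Myh6-ctl hearts and 104, 110.1 and 92.4 CPM in Myh6-tg hearts. The Myh6-tg hearts lay just above their controls, and a log2 fold change of 0.44 (SE 0.19, adjusted p = 0.147) did not pass.

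Per length, these were the most abundant of the 38 genes in every group. In EIIa-ctl hearts Map1lc3a had 252 ± 17.3 FPKM (SD, n = 3), Gabarap 139 ± 15.3, Map1lc3b 93.8 ± 1.28, Gabarapl2 38.9 ± 1.82 and Gabarapl1 34.1 ± 1.34, and no neighbours in this order overlapped between hearts. In Myh6-tg hearts the order was Map1lc3a at 286 ± 38.6 FPKM, Gabarap at 259 ± 22.4, Map1lc3b at 136 ± 1.27, Gabarapl1 at 109 ± 7.87 and Gabarapl2 at 72.4 ± 5.46. The hearts of Map1lc3a and Gabarap overlapped there, and the other neighbours did not. Gabarapl1 was thus below Gabarapl2 in the 3 EIIa-ctl hearts, where their FPKM ratio was 0.851 to 0.899, and above it in the other 9 hearts, where the ratio was 1.17 to 1.66.

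Gabarapl1 made up 6.002% to 6.18% of the FPKM of the 5 genes in EIIa-ctl hearts and 7.36% to 9.53% in EIIa-tg hearts. For the Myh6 model its share was 8.32% to 9.17% in controls and 11.99% to 13.7% in transgenic hearts. Map1lc3a went from a share of 43.4% to 46.7% in EIIa-ctl to one of 36.2% to 41.7% in EIIa-tg hearts, and had 37.6% to 40.9% against 30.0% to 35.7% in the Myh6 model. Neither share overlapped between a transgenic group and its own controls. The Gabarapl2 share did not overlap either, at 6.68% to 7.19% in EIIa-ctl and 5.74% to 6.19% in EIIa-tg hearts. It was higher in Myh6-tg hearts, at 8.08% to 8.55% against 6.41% to 7.75% in Myh6-ctl. The Gabarap share was apart in the EIIa model alone, and that of Map1lc3b in neither. The shares of a heart have a fixed sum, so that a share can fall because others rise. A share of the 5 genes is not moved by the scaling of the libraries, and these shares were not tested.

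**Figure D3:**
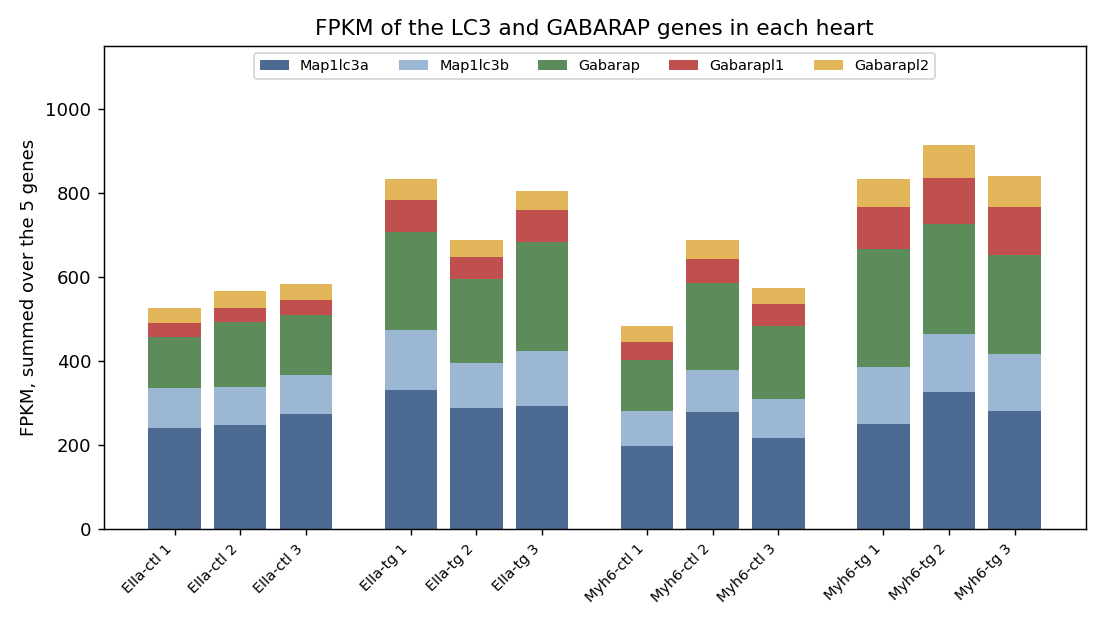
Stacked bars give the deposited FPKM of the 5 LC3 and GABARAP genes in each of the 12 hearts. The summed FPKM was 527 to 583 in EIIa-ctl and 689 to 834 in EIIa-tg hearts, 482 to 687 for the Myh6-ctl group and 833 to 914 for the Myh6-tg group, and the red Gabarapl1 segment is thinnest in the EIIa-ctl hearts.

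At the last step, all 4 genes for tethering and fusion had a negative log2 fold change in EIIa-tg hearts, and 1 passed. Of all genes, 8.30% were called lower there. Tecpr1 encodes a tether between autophagosome and lysosome. The EIIa-ctl hearts had 40.1, 31.2 and 35.2 CPM of it and the EIIa-tg hearts 23.2, 25.1 and 21.2 CPM. In Myh6-ctl hearts it had 46.0, 30.6 and 36.9 CPM, and in Myh6-tg hearts 31.3, 22.6 and 25.7 CPM. The EIIa groups were apart, and the highest Myh6-tg heart passed the lowest Myh6-ctl heart. Tecpr1 (chr5:144194442-144223615, minus strand) fell by 0.61 (SE 0.12, adjusted p = 0.0225) in EIIa-tg hearts, and its Myh6-tg value of -0.49 (SE 0.21, adjusted p = 0.146) did not pass.

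Snap29, a SNARE of the fusion complex, had -0.37 (SE 0.12, adjusted p = 0.0632) in EIIa-tg and 0.20 in Myh6-tg hearts. Epg5, another tether, had -0.33 and 0.04 and was the least abundant member per length, at 0.815 to 1.18 FPKM as group means. Stx17, the SNARE on the autophagosome, had 33.8, 29.7 and 29.3 CPM in EIIa-ctl hearts and 24.2, 22.9 and 3.58 CPM in EIIa-tg hearts. Its level in EIIa-tg replicate 3 stood apart, at 161 counts where the other 2 hearts of the group had 988 and 1138. The deposited FPKM of Stx17 in that heart was 2.63, against 4.18 and 3.84, so that the ratio of FPKM to counts in that heart was 3.87 times the gene's median ratio, after each heart's ratios were centred on their median. The log2 fold change of -0.86 (SE 0.54, adjusted p = 0.296) did not pass, and in Myh6-tg hearts it was -0.09. None of the 4 genes passed edgeR's test in Myh6-tg hearts (18.3% of all genes did), where 1, Tecpr1, had an unadjusted p under 0.05 (34.1%). DESeq2 and limma on FPKM called 0 of the 4 there (19.3% and 32.7% of all genes).

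Called in both models were 3 of the 38 genes, Atg13, Gabarapl1 and Ulk2, each in the same direction. Among all 14649 genes tested in both, 6.37% were called in both. The sign of the log2 fold change was the same in both models for 26 of the 38 genes, and for 70.9% of all genes. Across the 38 genes the log2 fold changes of both models had a Pearson r of 0.69 and a Spearman rho of 0.68, given as a description, since genes of 1 heart share its library.

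The change in Myh6-tg was compared with the change in EIIa-tg hearts in a fit of all 12 hearts, which differ in age as well as in model. None of the 38 genes passed edgeR's test of the difference, where 1.65% of all genes had a higher and 2.27% a lower change in Myh6-tg hearts. An unadjusted p under 0.05 was found for 5 of them (13.2%, against 19.4% of all genes), Atg4d, Uvrag, Atg2a, Atg9a and Snap29. DESeq2 called 1, Atg4d, where it called 6.71% of all genes. For Atg4d the difference was -0.66 (SE 0.19, 95% interval -1.07 to -0.25, adjusted p = 0.0755, and 0.0292 to 0.176 over the 23 alternative fits). For Atg10, called in Myh6-tg hearts, it was -0.72 (95% interval -1.45 to 0.02, adjusted p = 0.272), and for Gabarap, called in EIIa-tg hearts, -0.37 (95% interval -0.99 to 0.26, adjusted p = 0.524). For Tecpr1 the interval was -0.43 to 0.66, and for Atg13, which passed in both models, it was -0.75 to 0.70. The intervals of Atg10, Gabarap and Tecpr1, each called in 1 model alone, include 0.

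The controls were compared with each other because they differ in age, genotype and injection. None of the 38 genes passed edgeR's test between Myh6-ctl and EIIa-ctl hearts, where 0.0200% of all genes were higher and 0.0133% lower in Myh6-ctl. The unadjusted p was under 0.05 for 3 genes (7.89%, against 11.3% of all genes). These were Gabarapl1 (log2 difference 0.59, SE 0.15), Atg13 (0.49, SE 0.17) and Ulk1 (-0.35, SE 0.14). DESeq2 called 1, Gabarapl1, where it called 2.22% of all genes. What age, Cre and injection each add cannot be told apart.

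On the FPKM scale the balance of calls was different. The median of all genes shifted there to a log2 change of 0.34 in Myh6-tg and 0.16 in EIIa-tg hearts, on log2(FPKM + 1), and the medians of the 38 genes were 0.49 and 0.12. In Myh6-tg hearts limma called 13 genes, 12 higher and 1 lower, against 2 higher and 3 lower in edgeR, and the share of all genes called was 32.7%. In EIIa-tg hearts it called 6, 5 higher and 1 lower, against 3 higher and 2 lower, where the share of all genes was 23.9%. The calls of Ulk2 in both models and of Atg4d in Myh6-tg hearts ended on this scale. Of the calls that held, the log2 value of Atg10 was -0.67 and that of Gabarapl1 1.08 in Myh6-tg hearts, and that of Tecpr1 was -0.34 in EIIa-tg hearts. Relative to the median of all genes, Atg13 stood at 1.19 and Gabarapl1 at 0.74 in Myh6-tg hearts, and Atg10 at -1.01, Atg4d at -0.73 and Ulk2 at -0.57. The 5 called genes of each model kept their direction in every fit, but they were chosen on these same hearts.

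**Figure D4:**
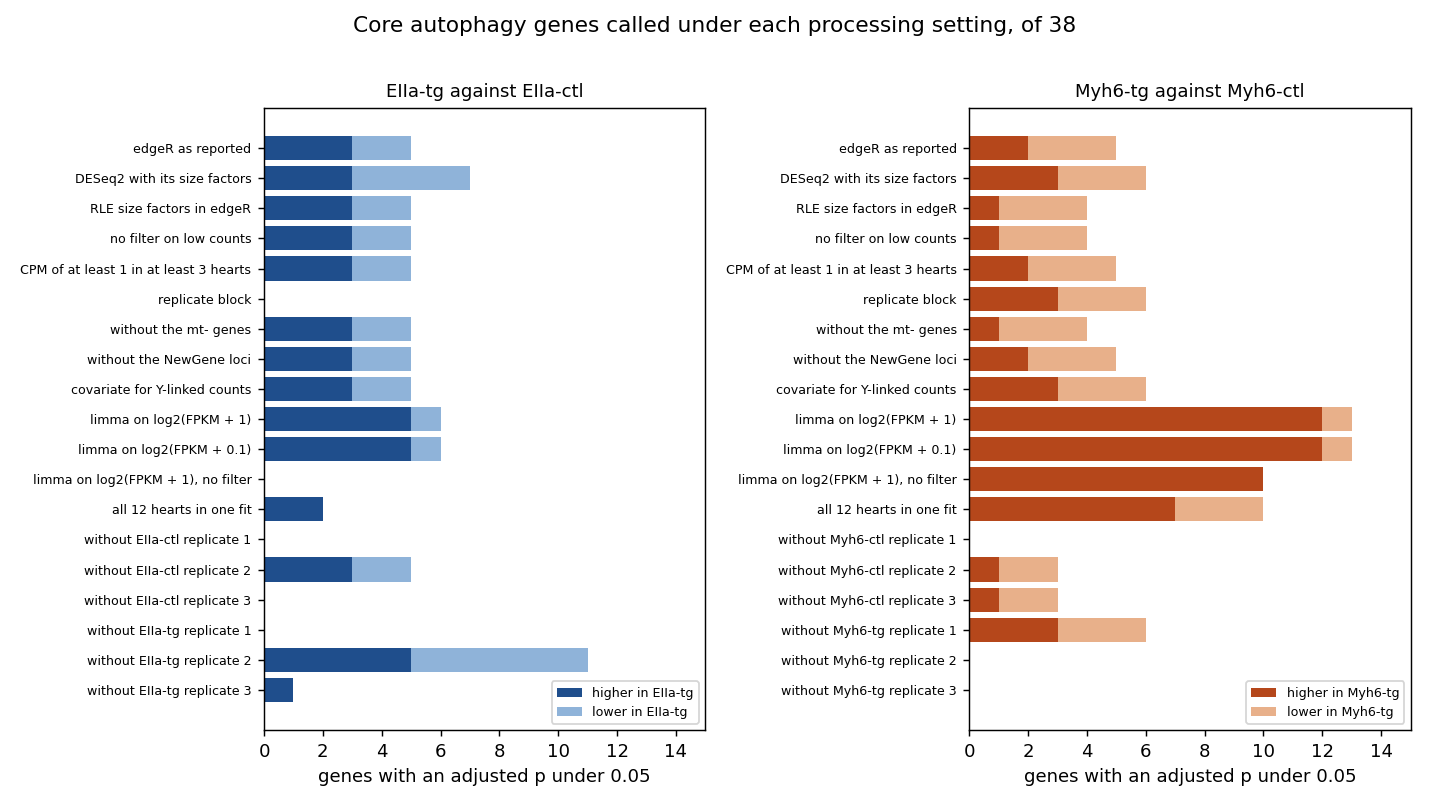
Bars give the number of the 38 core autophagy genes with an adjusted p under 0.05 under each processing setting, split into genes higher and lower in transgenic hearts. The count runs from 0 to 11 in the EIIa comparison and from 0 to 13 in the Myh6 comparison, against 5 as reported in each.

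Markers of some cell types of the heart differed in RNA level between the groups. Summed over 10 cardiomyocyte markers, the level was 44663 to 54094 CPM in EIIa-ctl against 23035 to 39585 CPM in EIIa-tg hearts, and 34322 to 46421 CPM in Myh6-ctl against 11534 to 33786 CPM in Myh6-tg hearts, and none of the markers was at 0. Of these markers 2 were called lower in EIIa-tg and 5 in Myh6-tg hearts, where 8.30% and 9.38% of all genes were called lower. The shares of all genes called higher were 8.65% and 8.96%. All 6 macrophage markers rose in EIIa-tg hearts (175 to 249 CPM summed in controls, 322 to 437 in EIIa-tg), and none of them passed in Myh6-tg hearts (319 to 431 and 401 to 739 CPM). Fibroblast markers, 1277 to 1805 CPM summed in EIIa-ctl and 2323 to 3343 in EIIa-tg hearts, rose for 2 of 6 in each model, with 1705 to 2104 CPM in Myh6-ctl and 1866 to 4704 in Myh6-tg hearts. Of 5 endothelial markers 3 fell in EIIa-tg hearts (861 to 994 against 643 to 745 CPM) and 0 passed in Myh6-tg hearts (524 to 1172 against 485 to 596 CPM). In bulk tissue fewer cells of a type and less RNA per cell cannot be told apart, and the part of these shifts in the changes of the autophagy genes was not tested.

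The genes around the core machinery were followed in a list of 56 for upstream signals, transcription factors, cargo receptors and further factors. In EIIa-tg hearts 8 of them (14.3%) passed, 4 higher and 4 lower, against 17.0% of all genes, with a median of -0.03 on the log2 scale. In Myh6-tg hearts 11 (19.6%) passed, 8 higher and 3 lower, against 18.3% of all genes, with a median of 0.22. Sqstm1 encodes p62, a cargo receptor found in protein aggregates. The EIIa-ctl hearts held 379 ± 23.5 CPM of it (SD, n = 3) and the EIIa-tg hearts 1083 ± 250.5, while the Myh6-ctl hearts held 665 ± 255 and the Myh6-tg hearts 1906 ± 127. It rose by 1.52 (SE 0.18, adjusted p = 0.0135) and 1.54 (SE 0.31, adjusted p = 0.0166), which are larger estimates than those of the 38 core genes, a difference that was not tested.

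Besides Sqstm1, the called genes of that list with the largest change in EIIa-tg hearts were Optn, another cargo receptor (-1.28), Trp53inp1, which binds LC3 proteins (1.24), Bcl2l1, whose product binds Beclin 1 (1.02), Mitf, a transcription factor of lysosome and autophagy genes (-0.66), and the SNARE Vamp8 (0.51). In Myh6-tg hearts they were Prkab2, a regulatory subunit of AMP-activated kinase (2.49), Trp53inp1 (1.80), Ddit4, an inhibitor of mTORC1 signalling (1.59), the mitophagy receptor Bnip3 (1.31) and Bcl2l1 (1.15). The change of Prkab2 differed between the models by 2.45 (SE 0.37, adjusted p = 0.00686): the EIIa-ctl hearts had 42.6 ± 4.61 CPM and the EIIa-tg hearts 43.3 ± 6.53, but the Myh6-ctl hearts had 53.3 ± 1.60 and the Myh6-tg hearts 295 ± 120.4.

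Promoter windows were searched for motifs of factors known to control autophagy genes. Each ran from 250 bases before to 50 bases after a start from RefSeq (GRCm38.p6), which need not be the outermost start of the gene. Of the 38 genes 31 had a window, 36 windows in all, and Becn1, Rb1cc1, Epg5, Atg16l1, Pik3c3, Atg12 and Map1lc3a had none. On both strands, the E-box CACGTG was in 5 of 36 windows (13.9%), against 7.15% of all 32851 windows. The longer element GTCACGTG, to which TFEB and its relatives bind and which contains the E-box, was in 3 of 36 (8.33%), against 2.25%. The FoxO motif GTAAACA was in 0 of 36, against 3.65%. The E-box was found in Atg14, Atg3, Atg5, Atg7 and Rubcn, whose 30-base stretches are shown with the motif in capitals because they are the matches among the members. In GENCODE M21 the outermost starts of Atg14, Atg7 and Rubcn are at 47570649, 114643097 and 32877766. The stretches of these genes lie inside the gene, and so do the GTCACGTG matches of Atg14 and Atg7.
Atg14 (chr14:47568418-47568447, minus strand): aaaacaaaatccCACGTGactggccctgag
Atg3 (chr16:45158723-45158752, plus strand): gcctccttttgtCACGTGtcctgggagagt
Atg3 (chr16:45158746-45158775, plus strand): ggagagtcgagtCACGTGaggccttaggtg
Atg5 (chr10:44268313-44268342, plus strand): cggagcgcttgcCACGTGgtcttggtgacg
Atg7 (chr6:114670952-114670981, plus strand): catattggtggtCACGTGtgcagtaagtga
Rubcn (chr16:32868437-32868466, minus strand): cgcctagcacatCACGTGtacccaggttag
These 5 genes had log2 fold changes of -0.09 to 0.07 in EIIa-tg and -0.25 to 0.28 in Myh6-tg hearts. None passed edgeR's test or had an unadjusted p under 0.05 in either model. DESeq2 called 0, and limma on FPKM called Atg3 in Myh6-tg hearts, where it called 32.7% of all genes. The 7 genes that passed in either model had windows without the E-box, which says only that these letters are not in the windows searched.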

How the data were processed

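RNA was sequenced from 12 mouse hearts, 3 in each of 4 groups taken from the sample titles; the genotype labels of EIIa-tg replicates 2 and 3 are spelled differently from that of replicate 1 (e3a and e4a in place of e2a), and the titles were followed. The authors deposited raw read counts per locus and, in a separate table, FPKM. The submitters' processing notes name HISAT2 (2.0.4), StringTie (2.2.1) and DESeq2, with GRCm39 and mm10 as builds; the counting tool and annotation are not given in the sources used here. Of 25171 loci, 22036 had Ensembl identifiers and 3135 were unannotated. Groups were compared with edgeR 4.0.16 (TMM, filterByExpr, glmQLFit and glmQLFTest) on the deposited counts in R 4.3.3, with Benjamini-Hochberg adjustment over all genes tested; each model used its own 6 hearts, and the difference used all 12. The 38 members and the other gene lists were chosen with earlier results of these data known. Every member was accounted for, each member with an adjusted p under 0.05 was named, values in every heart were given for called and LC3 and GABARAP genes, and the 6 called genes with the largest change in each model were named from 56 other pathway genes. Ambra1, Vmp1 and Stx17 were given heart by heart after their values were seen. Alternatives used DESeq2 1.42.0, limma 3.58.1 on log2(FPKM + pseudocount), other filters, scalings and sample sets. The scripts were tested on simulated counts. In the Myh6 comparison same-numbered hearts deviated together (correlations 0.281, 0.184 and 0.170, each above 0.1), and a paired fit was run as an alternative; the labels do not say what the numbers share. The labels describe separate animals, and each p-value weighs a difference between groups against the spread between hearts, with 3 hearts a group. Genome positions came from GENCODE M21 (GRCm38) by Ensembl identifier and promoter sequences from RefSeq; the coding end of 1 LC3 gene is not reported here. Figures were drawn with matplotlib.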

Additional observations from a re-analysis of the deposited data

How the results depend on the processing

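The 5 called genes of each model kept their direction in every alternative, and no value of a called gene reversed. These genes were chosen on the same hearts, in which their transgenic and control groups did not overlap. A kept direction is therefore no separate evidence for them. The number of genes called moved with the setting, and so did the share of all genes called, given here in parentheses. In the EIIa comparison it was 5 (17.0%) in the reported edgeR fit, and 0 in that fit at the study's thresholds (0%). It was 0 with the replicate block (0.00671%) and 0 with limma on log2(FPKM + 1) without a filter (0.00513%). A fit of all 12 hearts gave 2 (1.43%), and it was 0 to 11 when 1 heart was left out (0% to 26.6%). DESeq2 called 7 there (18.1%), and limma on filtered FPKM 6 (23.9%). In the Myh6 comparison it was 5 (18.3%) in the reported edgeR fit, and 0 in that fit at the study's thresholds (3.97%). It was 13 with limma on log2(FPKM + 1) (32.7%) or log2(FPKM + 0.1) (32.4%), and 10 without its filter (16.9%). A fit of all 12 hearts gave 10 (31.7%), and it was 0 to 6 when 1 heart was left out (5.01% to 26.7%). The replicate block gave 6 calls in the Myh6 comparison, the same 5 genes and Vmp1 (20.9%), and took Atg13 past the study's thresholds. Same-numbered hearts did not deviate together in the EIIa comparison (correlations 0.0482, -0.0725 and -0.0554). The labels do not say what the numbers share, and in every group the heart numbered 1 alone had Y-linked counts above 2. The replicate block therefore also takes up any difference between hearts with high and low Y-linked counts. For the difference between models, 0 in the reported fit (3.92%), DESeq2 called 1, Atg4d (6.71%). Leaving out 1 heart gave 0 to 1, namely Atg4d without Myh6-ctl replicate 3 (3.75%) and Wipi2 without Myh6-tg replicate 1 (10.6%). Between the controls DESeq2 called 1, Gabarapl1 (2.22%), and every other setting 0. The causes of these shifts were not tested. With 3 hearts a group, a missed threshold does not show that a gene did not change.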

Other observations

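The spread between hearts of 1 group is given as a description, with no test. The median coefficient of variation over the 38 genes was 6.44% for the EIIa-ctl group, where that of 15994 genes was 12.7%, and 9.72% against 15.2% for EIIa-tg. For Myh6-ctl it was 16.1% against 22.8%, and for Myh6-tg 12.6% against 22.4%. The 38 genes had at least 127 counts in every heart and were not matched to the other genes for abundance, on which this measure depends. Atg13 was the steadiest of the 38 in EIIa-ctl hearts, at 0.589%, and Stx17 the most variable in EIIa-tg (68.4%) and Myh6-tg hearts (48.0%).

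The deposited counts and FPKM were compared gene by gene, as the ratio of FPKM to CPM in a heart over the gene's median ratio, with each heart's ratios centred on their median. Of 444 values for 37 of the 38 genes, 1 was off by more than 1.5 times, that of Stx17 in EIIa-tg replicate 3, and of 137184 values over all genes compared 0.321% were. The cause was not tested.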
